A study of Ovis aries with 30 samples.

Results

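The insulin-like growth factor (IGF) axis was followed in brown adipose tissue (BAT) and thyroid of newborn lambs by reading 10 named genes from one count table of both tissues. The genes were the ligands IGF1 and IGF2, the receptors IGF1R and IGF2R, the binding proteins IGFBP2, IGFBP3, IGFBP4, IGFBP5 and IGFBP6, and the imprinted membrane protein DLK1. They are 10 of the 28524 genes in the table, and all 10 passed the filter on low counts in both tissues, where 14905 genes were tested in BAT and 16122 in thyroid. The lambs were newborn Romney twins of both sexes, the heavier of each pair and 1 per dam, allocated at random to a group, and the housed lambs stayed with their dams. Control lambs (n = 3) were sampled within 24 h of lambing, AT lambs (n = 6) after 2 days indoors at an ambient temperature of 20 to 22 °C, and cold lambs (n = 6) after 2 days at 4 °C. Each lamb gave BAT from around the kidneys and thyroid, so that 30 libraries were read. The question was how gene activity in the 2 tissues differed after 2 days of housing, with and without cold. Lambs of both housed groups were 2 days older than the controls, so housing and age cannot be told apart in any comparison with controls, and only the comparison of cold with AT was made at matched age.

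IGF1 and IGF2 are secreted peptides that drive growth through the tyrosine kinase receptor IGF1R. IGF2R, also called the cation-independent mannose-6-phosphate receptor, takes up IGF2 for degradation and sorts lysosomal enzymes, and the IGF binding proteins carry the ligands and set how much of them can reach a receptor. Circulating IGF1 is largely hepatic and depends on growth hormone, IGF2 is the main fetal ligand in ruminants, and both are also made locally, for example by adipose precursors and fibroblasts. DLK1 is a Notch-like protein of preadipocytes that holds back fat cell differentiation.

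Total counts were 31556500 to 37025998 per library in BAT and 25062784 to 30124871 in thyroid, and the 10 genes held between 71 and 15877 reads per library. The study left out 1 control, identified here as Control 2 in both tissues, and the fits below use Controls 1 and 3 unless stated otherwise. For single genes, values of Control 2 are given beside those of the controls where these are printed. Some sums of marker genes are given for Controls 1 and 3 only. Levels within a tissue are normalized counts, that is, reads divided by a size factor from the reference genes ACTB, RPL19 and HUWE1. The labels were checked against marker genes on each tissue's own scale. Brown adipocyte genes summed to between 28755 and 118380 in BAT of the 14 lambs in the fits, and thyroid follicular cell genes to between 1322900 and 5866900 in thyroid against at most 1552 in BAT. Other libraries stood apart in thyroid. Summed skeletal muscle genes were at 3131100 in AT 3 and 271450 in Control 1 but between 87.3 and 3663 in the other 13 libraries, and summed parathyroid genes were at 9217 in Control 2 against at most 1253 elsewhere. Summed C cell genes varied widely within every group, from 265 to 256880 in AT lambs, 898 to 171280 in cold lambs, and at 31285, 69918 and 623 in Controls 1, 2 and 3. The skeletal muscle sum of AT 3 and the parathyroid sum of Control 2 are repeated below beside results they touch. The C cell sums and the muscle sum of Control 1, a control of the main thyroid fits, are not.

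In the coordinates of the deposited table (genome build Oar_rambouillet_v1.0), the genes lie on 7 chromosomes. IGF1 spans chromosome 3 from 183945231 to 184028095 on the minus strand, and IGFBP6 lies on the same chromosome from 142893627 to 142897177. IGF2 lies on chromosome 21 from 51230091 to 51254815. IGF1R spans chromosome 18 from 7575639 to 7879425 and DLK1 the same chromosome from 66123695 to 66131770. IGF2R spans chromosome 8 from 90923720 to 91026608 with 49 exonic blocks. IGFBP2 and IGFBP5 are neighbours on opposite strands of chromosome 2, from 233422726 to 233452151 and from 233461461 to 233484486, with 9309 bases between them. IGFBP3 lies on chromosome 4 from 83695177 to 83703580 and IGFBP4 on chromosome 11 from 22499236 to 22509465. Counts are over the exons of each gene. Whether strand was used in counting is not given in the sources used here, so reads from transcripts on the opposite strand cannot be told apart.

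Between the tissues, the ligands and the binding protein IGFBP3 stood furthest apart. Levels here are normalized counts per kb of exon, scaled over both tissues together, with the lowest, median and highest of 14 lambs. IGF2 was at 1029, 2036 and 3254 in BAT and at 69.4, 122 and 2550 in thyroid. The thyroid value of 2550 was that of AT 3, the library with the highest skeletal muscle genes, and it was the only lamb of 14 in which thyroid held more IGF2 than BAT. Averaged over the 3 groups, IGF2 was higher in BAT by 3.49 ± 0.57 on the log2 scale (log2 fold change ± SE, edgeR adjusted p = 7.06e-06), and by 4.17 without AT 3. IGF1 was at 163, 407 and 867 in BAT and 21.9, 71.8 and 155 in thyroid. It was higher in BAT in 14 of 14 lambs, by 2.55 ± 0.25 (adjusted p = 8.49e-10). IGFBP3, the main carrier of IGFs in serum, was at 368, 1134 and 3972 in BAT and 45.4, 115 and 231 in thyroid, a difference of 3.06 ± 0.35 seen in 14 of 14 lambs (adjusted p = 2.06e-08).

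The other binding proteins were also higher in BAT, by smaller differences. IGFBP6, which prefers IGF2 over IGF1, was higher by 1.64 ± 0.24 (adjusted p = 1.46e-06) and IGFBP4, an inhibitor of IGF action, by 1.47 ± 0.19 (adjusted p = 8.74e-08), each in 14 of 14 lambs. IGFBP5 was higher by 0.69 ± 0.18 in 11 of 14 lambs (adjusted p = 0.00167). IGFBP2 was higher by 0.83 ± 0.31 in 10 of 14 lambs (adjusted p = 0.0179), and this call was lost with all 3 controls (0.58, adjusted p = 0.0646). IGF2R was lower in BAT by this average (-0.54 ± 0.12, adjusted p = 0.000204), although it was higher in BAT in 10 of 14 lambs. The average weights the 3 groups equally and the thyroid controls were high for this gene, and with Controls 1 and 2 in place of Controls 1 and 3 it was -0.18 (adjusted p = 0.318). With Controls 2 and 3 it was -0.37 (adjusted p = 0.0802). IGF1R and DLK1 differed by -0.11 ± 0.15 and 0.35 ± 0.33 (adjusted p = 0.518 and 0.344), and DLK1 passed with Controls 1 and 2 (0.81, adjusted p = 0.0264). In all, 8 of the 10 genes were called in this comparison, where 71% of all 17021 genes tested were called.

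**Figure D1:**
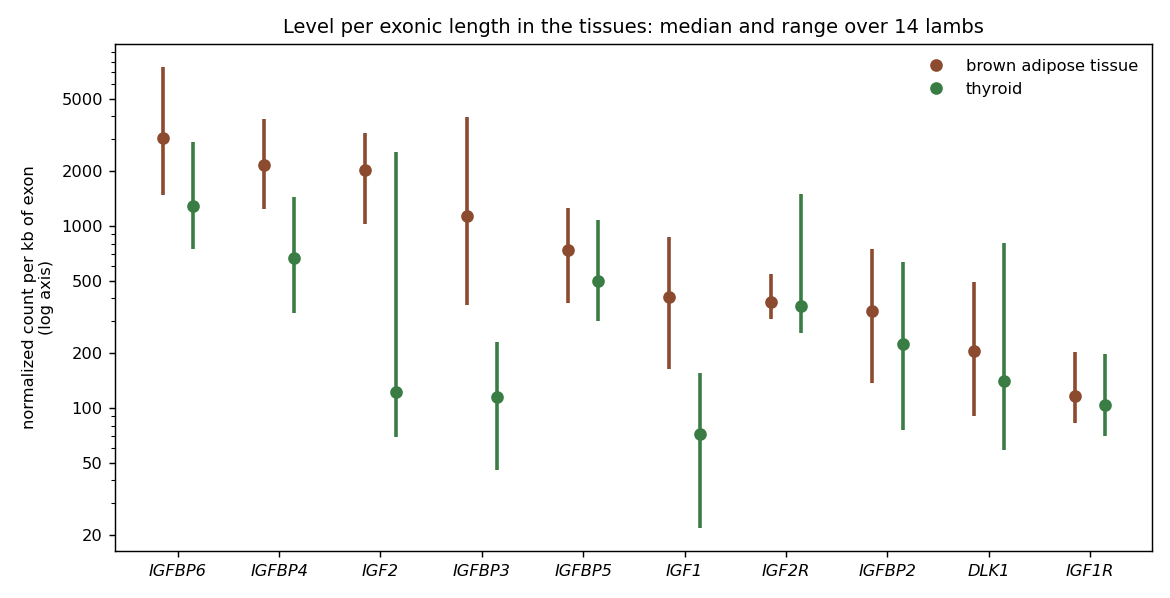
Level of the 10 genes per kb of exon in both tissues, as normalized counts scaled over both tissues together (log axis); points are medians and lines run from the lowest to the highest of 14 lambs. IGF2, IGF1 and IGFBP3 lie furthest apart between the tissues, and the top of the thyroid line of IGF2 (2550) is lamb AT 3.

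By median level per kb, the order in BAT was IGFBP6, IGFBP4, IGF2, IGFBP3, IGFBP5, IGF1, IGF2R, IGFBP2, DLK1 and IGF1R. In thyroid it was IGFBP6, IGFBP4, IGFBP5, IGF2R, IGFBP2, DLK1, IGF2, IGFBP3, IGF1R and IGF1. IGFBP6 and IGFBP4 thus led both orders, while IGF2 stood at place 3 in BAT and place 7 in thyroid, and IGF1 last in thyroid. These places depend on the annotated exon length, which was 711 bases for IGFBP6, 777 for IGFBP4, 2772 for IGF2 and 10550 for IGF1. The ranges of neighbours in either order overlapped in every case. Within lambs, IGFBP5 exceeded IGF1 in BAT in 14 of 14, whereas IGF1 exceeded IGF2R in 7 of 14.

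In thyroid, IGF1 was higher and IGF2R lower after 2 days of housing, at either temperature. IGF1 was at 707 and 364 normalized counts in Controls 1 and 3. In AT lambs the lowest, median and highest values were 834, 1415 and 2533, and in cold lambs they were 1037, 1384 and 1474. No housed lamb overlapped the 2 controls of the fit, but Control 2, at 1072, lay inside the range of both housed groups. IGF1 rose by 1.28 ± 0.39 in cold (log2 fold change ± SE, edgeR adjusted p = 0.0356) and by 1.46 ± 0.40 in AT lambs (adjusted p = 0.0192). With all 3 controls the changes were 0.86 (adjusted p = 0.104) and 1.05 (adjusted p = 0.0553), so neither call held. With only AT lambs and controls in the fit, the call in AT lambs was also lost (1.45, adjusted p = 0.0882). In these bulk samples, more cells of a type and more RNA per cell cannot be told apart.

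Fibroblast genes moved with thyroid IGF1. Of 5 fibroblast markers (COL1A1, COL1A2, COL3A1, DCN and LUM), 4 rose in cold and 5 in AT lambs, DCN by 1.67 (adjusted p = 0.0265) and 1.64 (adjusted p = 0.0261). Their summed level was between 11732 and 14140 in the 2 controls, at 22979 in Control 2, and between 28379 and 140920 in housed lambs, with no marker of the list at 0. With this sum as a covariate, the change in IGF1 was 0.50 in cold (adjusted p = 0.415) and 0.61 in AT lambs (adjusted p = 0.314). The sum did not overlap between the 2 controls and the housed lambs, so this fit cannot tell it and housing apart. Other marker lists moved in the same comparisons. Of all genes tested in thyroid, 16.9% were called lower and 2.34% higher in cold, and 18.7% and 2.23% in AT lambs. In cold and again in AT lambs, 2 of 4 macrophage genes rose (CSF1R and AIF1), 2 of 5 endothelial genes fell (PECAM1 and CDH5) and 2 of 5 smooth muscle and pericyte genes fell (TAGLN and PDGFRB). Summed macrophage genes were between 984 and 1084 in the 2 controls and between 1105 and 2310 in housed lambs, and summed endothelial genes between 18592 and 28283 and between 8215 and 19181. The part of these in the IGF1 and IGF2R values was not tested. Leaving out the cold lambs 1, 2, 3 or 5 in turn also ended the call in cold, at adjusted p between 0.0538 and 0.0600.

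IGF2R, the uptake receptor for IGF2, was at 14674 and 21003 normalized counts in thyroid of Controls 1 and 3. It was between 3753 and 6204 in AT lambs, with a median of 4791, and between 3939 and 7698 in cold lambs, with a median of 5404. The 2 controls of the fit lay above all 12 housed lambs, but Control 2 was at 4064, within their range. IGF2R fell by 1.71 on the log2 scale in cold (SE 0.22, 95% interval -2.14 to -1.28, adjusted p = 0.00108) and by 1.88 in AT lambs (SE 0.22, adjusted p = 0.000556). The change was smaller but still called with all 3 controls, at -1.28 in cold (adjusted p = 0.018) and -1.45 in AT lambs (adjusted p = 0.0111). With Controls 1 and 2, and without Control 3, it was -0.78 (adjusted p = 0.138) and -0.95 (adjusted p = 0.0803), and with Controls 2 and 3 it was -1.20 (adjusted p = 0.0458) and -1.36 (adjusted p = 0.0269). Of 27 alternatives run in each housed group, 26 kept the call, and the exception was the one without Control 3. With the summed fibroblast genes as covariate it was -1.41 (adjusted p = 0.0175) and -1.58 (adjusted p = 0.0164).

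M6PR, the other mannose-6-phosphate receptor, was looked at after the values of IGF2R were seen. It was lower in thyroid by 1.05 ± 0.18 in cold (adjusted p = 0.0028) and by 1.16 ± 0.18 in AT lambs (adjusted p = 0.00157), and in BAT its log2 fold changes were -0.27 and -0.37 (adjusted p = 0.494 and 0.231). The difference between the tissues did not pass, at 0.81 in cold (adjusted p = 0.208) and 0.83 in AT lambs (adjusted p = 0.0928). The M6PR fits use the same thyroid controls as the main fits of IGF2R. Its level in the control left out, and fits with other controls, are not given. In these thyroid comparisons, 19.3% of all genes tested were called in cold and 21% in AT lambs.

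**Figure D2:**
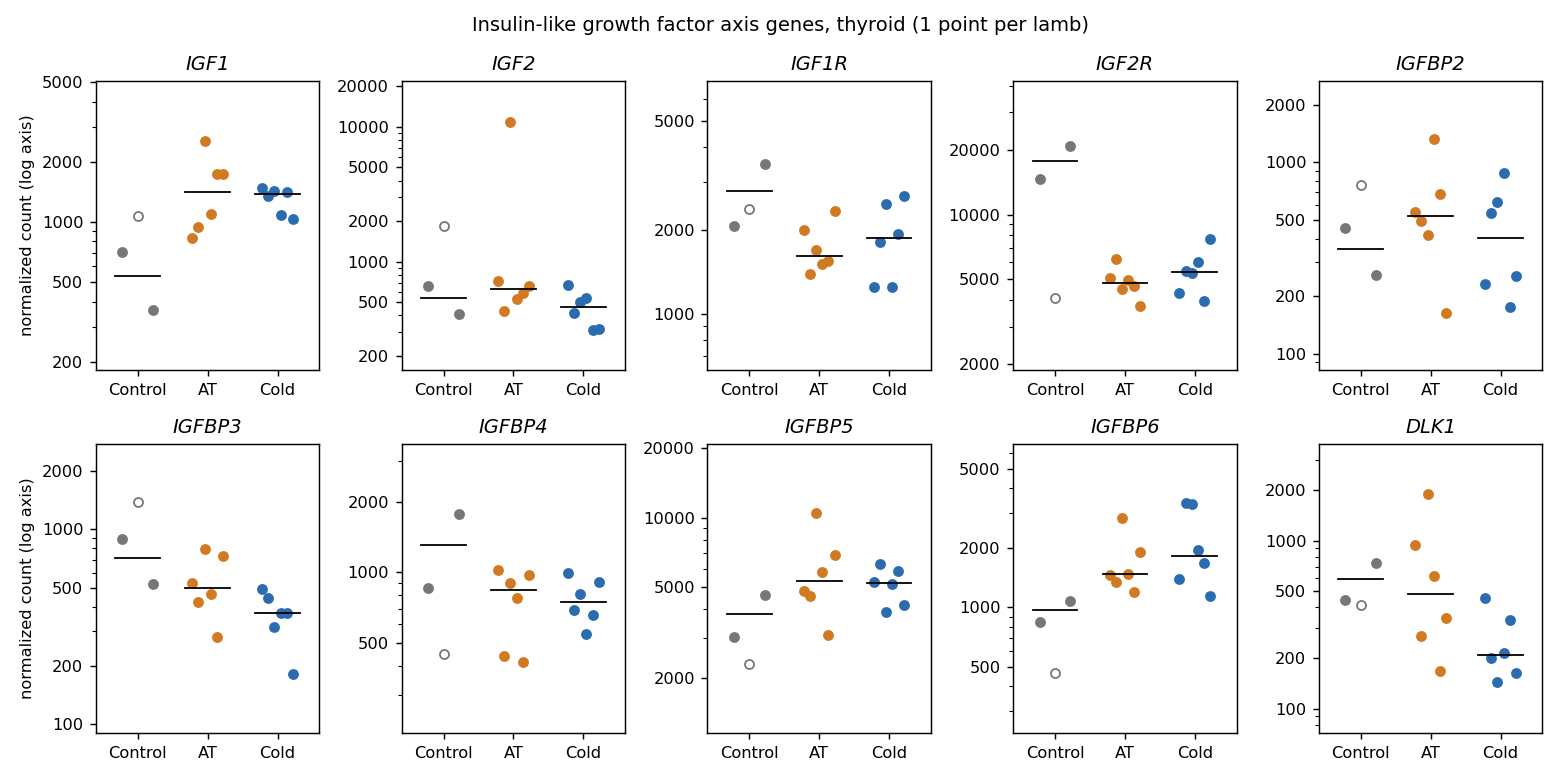
Normalized counts of the 10 genes in thyroid (log axes), 1 point per lamb, for control, AT and cold groups; black lines are medians of the lambs in the fit and the open grey point is Control 2, which the fit leaves out. For IGF2R the 2 filled controls (14674 and 21003) lie above every housed lamb while the open one (4064) lies among them, and lamb AT 3 stands alone for IGF2 (10945).

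IGF1 and IGF2R were the 2 of 10 genes called in thyroid in cold and again in AT lambs, where 19.3% and 21% of all genes tested were called. These comparisons share their control libraries. The median log2 fold change of all genes tested in thyroid was -0.28 in both. Under TMM scaling, which sets the bulk of genes to no change, that median was 0.02 in cold and 0.05 in AT lambs. Under that scaling IGF1 was at 1.53 (adjusted p = 0.037) and 1.73 (adjusted p = 0.0241) and IGF2R at -1.40 (adjusted p = 0.00302) and -1.53 (adjusted p = 0.00185). Over the 10 genes, the median was -0.38 in cold and 0.45 in AT lambs. The groups did not overlap for 4 of 10 genes in cold and 3 in AT lambs, beside 34.6% and 27.3% of all genes tested.

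**Figure D3:**
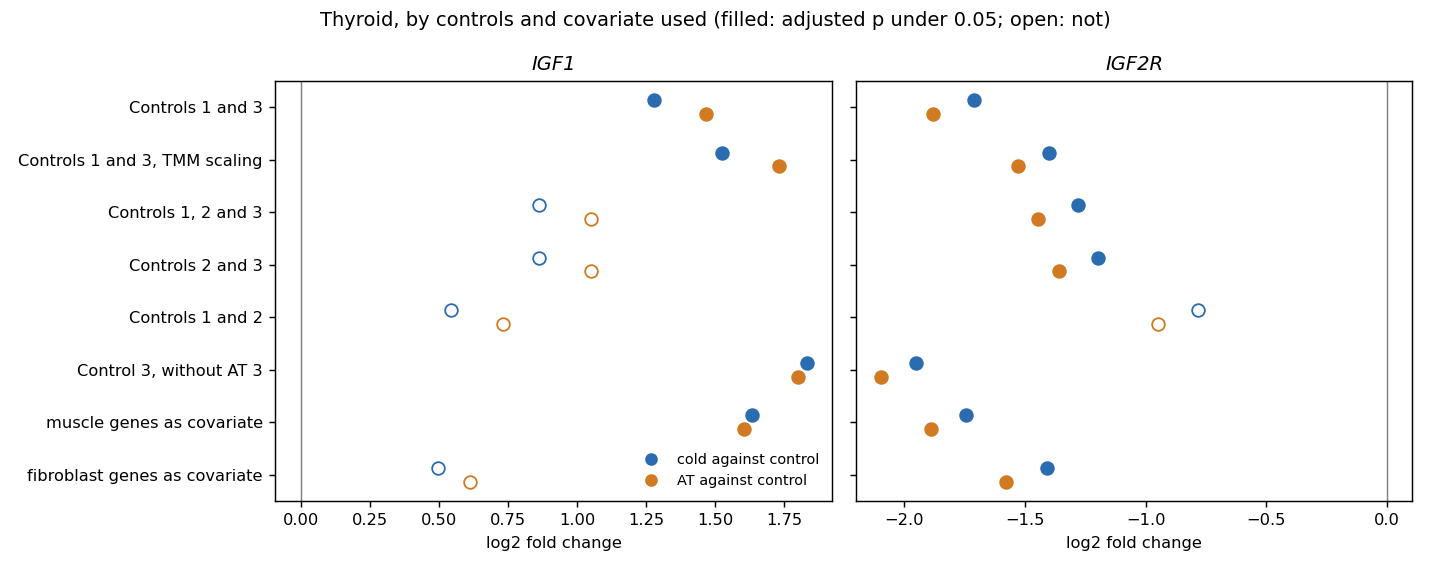
Log2 fold change of IGF1 and IGF2R in thyroid against controls, by the controls, scaling or covariate used; filled points have an adjusted p under 0.05. IGF2R is below 0 in every line and open only with Controls 1 and 2 (-0.78 and -0.95), whereas IGF1 is open in each line that includes Control 2 and with the fibroblast genes as covariate.

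The remaining thyroid values did not pass the test. IGF2 was at 655 and 411 normalized counts in Controls 1 and 3 and at 1838 in Control 2, with 313, 460 and 666 as the lowest, median and highest in cold lambs. In AT lambs it was between 427 and 718 in 5 lambs and at 10945 in AT 3. The log2 fold change in AT lambs was 2.11 ± 1.31 (adjusted p = 0.264) with that library and 0.12 (adjusted p = 0.771) without it. IGF1R, the signalling receptor, was at 2084 and 3474 in the controls and 2394 in Control 2, with medians of 1621 in AT and 1882 in cold lambs. Its log2 fold changes were -0.67 ± 0.29 (adjusted p = 0.109) and -0.54 ± 0.29 (adjusted p = 0.195).

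Among the binding proteins in thyroid, IGFBP6 was at 848 and 1083 normalized counts in the 2 controls and 465 in Control 2, with lowest, median and highest values of 1147, 1810 and 3359 in cold lambs. All cold and AT lambs lay above the controls. The log2 fold change in cold was 1.15 ± 0.43 (adjusted p = 0.0763), and it was called under TMM scaling (1.44, adjusted p = 0.039) and with all 3 controls (1.42, adjusted p = 0.0225). With the fibroblast genes as covariate it was -0.21 (adjusted p = 0.64), so its direction turned. In AT lambs, at 1193 to 2837, the log2 fold change was 0.82 ± 0.43 (adjusted p = 0.179).

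IGFBP3 was at 894 and 526 normalized counts in the thyroid controls and 1376 in Control 2, against 181, 374 and 495 in cold lambs, all of them below the controls. Its log2 fold change in cold was -0.97 ± 0.36 (adjusted p = 0.0739), and -1.36 with all 3 controls (adjusted p = 0.0149). In AT lambs it was -0.41 ± 0.37 (adjusted p = 0.45). IGFBP4 was at -0.77 ± 0.35 in cold and -0.80 ± 0.35 in AT lambs (adjusted p = 0.125 and 0.108). It was called without AT 3 and Control 1, the libraries with high skeletal muscle genes, at -1.21 (adjusted p = 0.0342) and -1.30 (adjusted p = 0.0251), with Control 3 as the only control. With Controls 1 and 2 its direction turned, at 0.23 (adjusted p = 0.72) and 0.20 (adjusted p = 0.762). IGFBP2 and IGFBP5 were at 0.35 ± 0.69 and 0.43 ± 0.35 in cold (adjusted p = 0.757 and 0.412) and at 0.78 ± 0.71 and 0.64 ± 0.36 in AT lambs (adjusted p = 0.453 and 0.206).

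DLK1 in thyroid was at 445 and 732 normalized counts in the controls and 414 in Control 2. In cold lambs it was 144, 208 and 457 by lowest, median and highest, and in AT lambs 167, 479 and 1880, the last in AT 3. Its log2 fold changes were -1.22 ± 0.69 in cold (adjusted p = 0.228) and 0.25 ± 0.74 in AT lambs (adjusted p = 0.83).

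In BAT, IGF1 was the only one of the 10 genes called, and only in AT lambs. It was at 1540 and 1078 normalized counts in Controls 1 and 3 and at 2726 in Control 2. AT lambs had 2342, 3599 and 5725 as lowest, median and highest, and all 6 lay above the 2 controls of the fit, while 3 lay below Control 2. Cold lambs had 1140, 2804 and 3192 and overlapped the controls. IGF1 rose by 1.53 ± 0.47 in AT lambs (edgeR adjusted p = 0.0498) and its log2 fold change in cold was 0.89 ± 0.45 (adjusted p = 0.308). The call lay at the threshold. It was lost with all 3 controls (1.14, adjusted p = 0.0843), and with fibroblast genes as a covariate (0.90, adjusted p = 0.189). Either other pair of controls ended it, at 1.06 with Controls 2 and 3 (adjusted p = 0.164) and 0.91 with Controls 1 and 2 (adjusted p = 0.202). It was also lost without Cold 1, 2, 4 or 5 or AT 4, 5 or 6 in turn (1.36 to 1.54, adjusted p 0.0534 to 0.0812). Other filters, the fit of only 2 groups and RNA integrity as a covariate ended it too (adjusted p 0.0532 to 0.0737). Summed fibroblast genes were at 26056 and 26918 in the 2 controls and between 29429 and 177140 in AT lambs, with 0 of 5 markers called. In that comparison 3 of 5 smooth muscle and pericyte genes, 2 of 5 endothelial, 1 of 4 macrophage and 1 of 7 brown adipocyte genes fell, and their part in the IGF1 value was not tested. In AT lambs 1 of 10 genes called stands beside 9.3% of all genes tested, and in cold 0 of 10 beside 1.48%. In cold 2 of 10 had an unadjusted p under 0.05, beside 18.1% of all genes tested, and 0 were called by the DESeq2 Wald test.

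**Figure D4:**
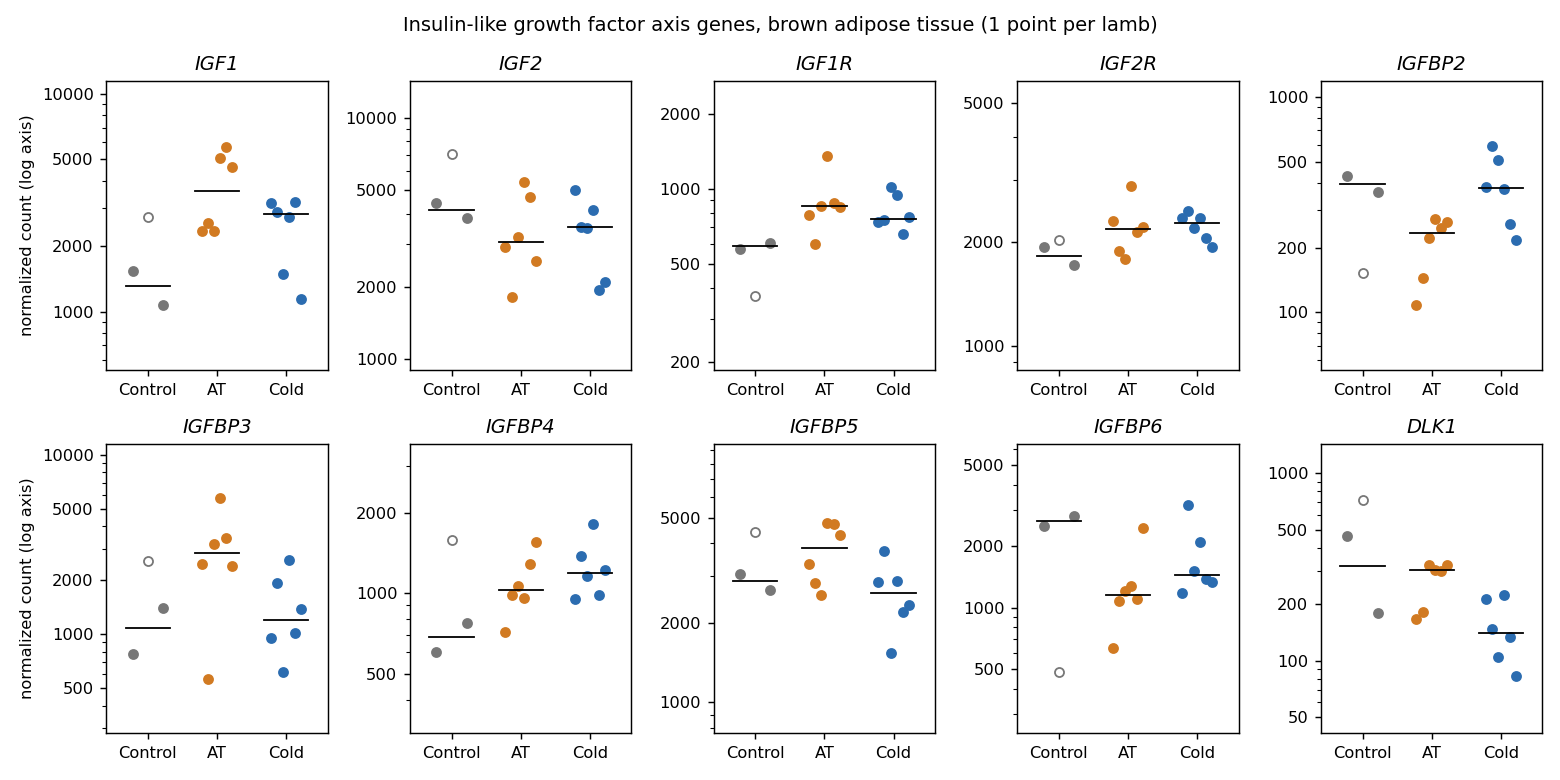
Normalized counts of the 10 genes in BAT (log axes), 1 point per lamb, for control, AT and cold groups; black lines are medians of the lambs in the fit and the open grey point is Control 2, which the fit leaves out. For IGF1 all 6 AT lambs (2342 to 5725) lie above the 2 filled controls, and for DLK1 4 of 6 cold lambs (82.3 to 224 over all 6) lie below every control and AT lamb.

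IGF2 and both receptors in BAT did not pass the test. IGF2 was at 4445 and 3830 normalized counts in the 2 controls and 7076 in Control 2, with medians of 3059 in AT and 3511 in cold lambs and log2 fold changes of -0.27 ± 0.39 and -0.30 ± 0.38 (adjusted p = 0.697 and 0.729). IGF1R was at 574 and 605 in the controls, 372 in Control 2, and 599 to 1362 in AT and 657 to 1022 in cold lambs. Its log2 fold changes were 0.59 ± 0.26 (adjusted p = 0.164) and 0.46 ± 0.26 (adjusted p = 0.366), and it was called in AT lambs under TMM scaling (0.67, adjusted p = 0.0346) and with all 3 controls (0.86, adjusted p = 0.0369). IGF2R was at 1935 and 1709 in the controls and 2027 in Control 2, against 1784 to 2896 in AT and 1930 to 2450 in cold lambs. Its log2 fold changes were 0.27 ± 0.21 and 0.28 ± 0.21 (adjusted p = 0.429 and 0.498).

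DLK1 in BAT was at 463 and 179 normalized counts in Controls 1 and 3 and 719 in Control 2. AT lambs had 167, 303 and 324 and cold lambs 82.3, 141 and 224 as lowest, median and highest. Of the 6 cold lambs, 4 lay below the lower control. The log2 fold change in cold was -1.09 ± 0.38 (adjusted p = 0.144). It was called with all 3 controls (-1.53, adjusted p = 0.0273), with Controls 2 and 3 (-1.51, adjusted p = 0.0494) and with Controls 1 and 2 (-1.91, adjusted p = 0.00947). In AT lambs it was -0.26 ± 0.39 (adjusted p = 0.718).

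The BAT binding proteins had wide spreads. IGFBP6 was at 2514 and 2819 normalized counts in the 2 controls but 484 in Control 2, and AT lambs, at 635 to 2452, lay between them. Its log2 fold change in AT lambs was -1.04 ± 0.39 (adjusted p = 0.107), and it was called without AT 6 (-1.35, adjusted p = 0.0152) and with fibroblast genes as covariate (-1.89, adjusted p = 0.000905). In cold it was -0.58 ± 0.40 (adjusted p = 0.472), and with that covariate -1.31 (adjusted p = 0.019). The direction in cold turned with either other pair of controls, to 0.19 with Controls 2 and 3 and 0.34 with Controls 1 and 2, and in AT lambs the values were then -0.26 and -0.10. IGFBP2 was at 429 and 360 in the controls and 153 in Control 2, and at 108 to 272 in AT lambs, all below the 2 controls, with a log2 fold change of -0.91 ± 0.35 (adjusted p = 0.115). IGFBP4 was at 600 and 775 in the controls, 1586 in Control 2, and 947 to 1809 in cold lambs, with log2 fold changes of 0.86 ± 0.30 in cold (adjusted p = 0.137) and 0.67 ± 0.29 in AT lambs (adjusted p = 0.161). With Controls 2 and 3 the value in AT lambs was -0.03 (adjusted p = 0.957). IGFBP3, at 773 and 1397 in the controls and 2558 in Control 2, had log2 fold changes of 1.45 ± 0.67 in AT lambs (adjusted p = 0.185) and 0.38 ± 0.63 in cold (adjusted p = 0.791). With all 3 controls these were 0.98 and -0.09, with Controls 2 and 3 0.68 and -0.41, and with Controls 1 and 2 0.93 and -0.16, so the direction in cold turned. IGFBP5, at 3067 and 2670 in the controls and 4417 in Control 2, had log2 fold changes of 0.39 ± 0.31 and -0.14 ± 0.30 (adjusted p = 0.463 and 0.847).

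**Figure D5:**
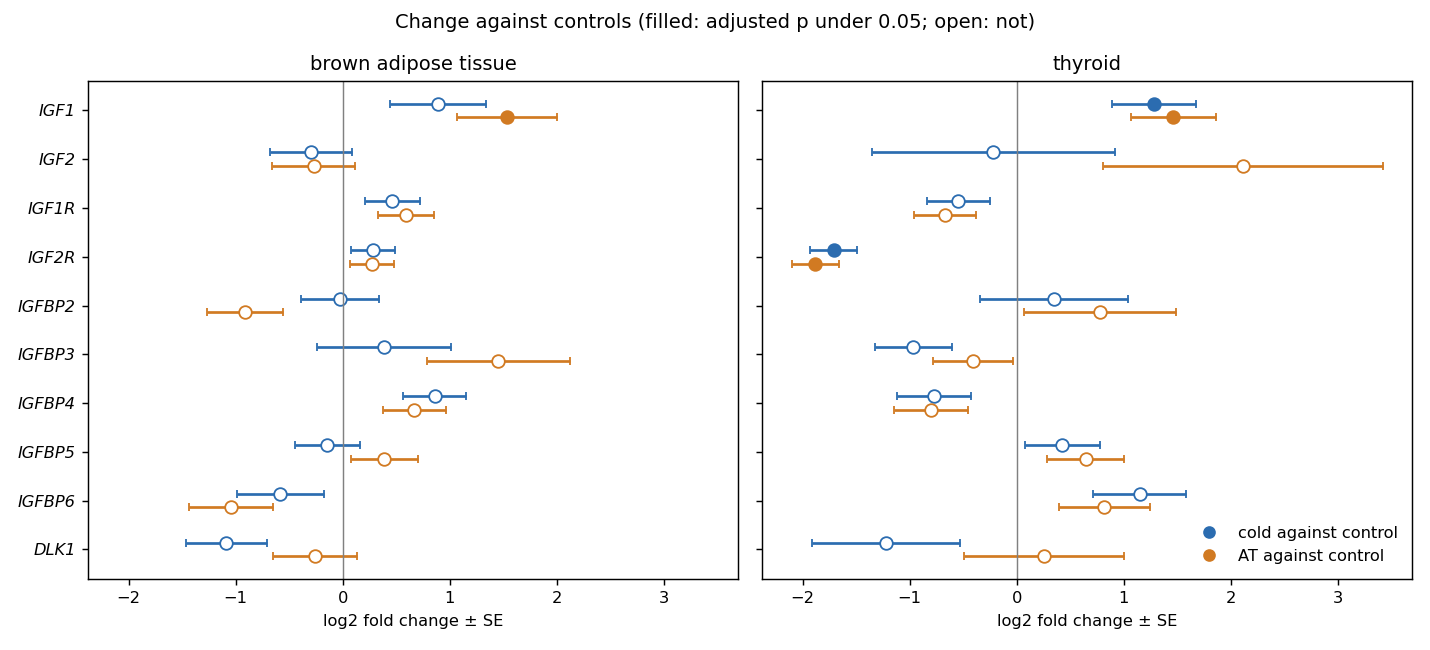
Log2 fold change ± SE of the 10 genes against Controls 1 and 3, in cold and in AT lambs, for BAT and thyroid; filled points have an adjusted p under 0.05. IGF2R lies near 0 in BAT (0.28 and 0.27) and at -1.71 and -1.88 in thyroid, and IGF1 lies above 0 in all 4 comparisons.

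Cold and AT lambs of the same age did not differ in any of the 10 genes by edgeR's adjusted p, in either tissue. In BAT 0 of 10 genes were called beside 0.309% of all genes tested, and in thyroid 0 of 10 beside 0%. At an unadjusted p under 0.05 there were 5 of 10 in BAT, beside 12.3% of all genes tested, and 2 of 10 in thyroid, beside 5.4%. The DESeq2 Wald test also called 0 of 10 in BAT, and 0 of the 9 with an adjusted p in thyroid, where it gave none for IGF2. In BAT, IGFBP2 was 108 to 272 normalized counts in AT and 216 to 592 in cold lambs, where 4 of 6 cold lambs lay above the AT range. The difference of cold minus AT was 0.89 ± 0.26 (95% interval 0.37 to 1.41, adjusted p = 0.204). For DLK1 the difference was -0.83 ± 0.29 (95% interval -1.39 to -0.27, adjusted p = 0.28), with 4 of 6 cold lambs below the AT range.

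A further 3 BAT genes had unadjusted p-values under 0.05 between cold and AT lambs. These were IGFBP3 (-1.07 ± 0.44, adjusted p = 0.346), IGFBP5 (-0.53 ± 0.22, adjusted p = 0.342) and IGF1 (-0.64 ± 0.30, adjusted p = 0.401). The other BAT differences were 0.46 ± 0.29 for IGFBP6, 0.19 ± 0.20 for IGFBP4, -0.13 ± 0.18 for IGF1R, -0.03 ± 0.28 for IGF2 and 0.01 ± 0.14 for IGF2R. In exact two-sided permutation tests over the 12 lambs, which cannot go below p = 0.00216, DLK1 had p = 0.0173, IGFBP2 p = 0.026 and IGFBP5 p = 0.0455, and adjusted over all genes tested these were 0.433, 0.468 and 0.51. In thyroid, DLK1 (-1.47 ± 0.53, adjusted p = 0.911) and IGF2 (-2.33 ± 0.85, adjusted p = 0.911) had the lowest p-values, and without AT 3 their differences were -0.89 and -0.35. The IGF2R difference between cold and AT lambs in thyroid was 0.17 ± 0.17 (95% interval -0.16 to 0.50). The other thyroid differences were -0.56 ± 0.27 for IGFBP3, -0.43 ± 0.48 for IGFBP2, 0.33 ± 0.29 for IGFBP6, -0.22 ± 0.24 for IGFBP5, -0.19 ± 0.26 for IGF1, 0.12 ± 0.21 for IGF1R and 0.03 ± 0.25 for IGFBP4.

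The change in IGF2R against controls differed between the tissues. In a fit of both tissues together, its change in BAT exceeded that in thyroid by 2.03 ± 0.32 on the log2 scale in cold (adjusted p = 0.00379) and by 2.20 ± 0.32 in AT lambs (adjusted p = 0.0006). It was 1 of 10 genes called in each, beside 0.188% and 1.66% of all genes tested. These calls rest on the same 2 thyroid controls. With all 3 controls the difference in cold was 1.58 (adjusted p = 0.0721), with Controls 1 and 2 the differences were 0.98 (adjusted p = 0.241) and 1.20 (adjusted p = 0.103), and with Controls 2 and 3 the difference in cold was 1.54 (adjusted p = 0.0863). The difference in AT lambs was still called with all 3 controls (1.78, adjusted p = 0.0161) and with Controls 2 and 3 (1.74, adjusted p = 0.0295). For IGF1 the tissue difference was -0.36 ± 0.59 in cold and 0.11 ± 0.59 in AT lambs (95% intervals -1.51 to 0.79 and -1.05 to 1.26). IGF1R had a tissue difference of 1.32 ± 0.40 in AT lambs (adjusted p = 0.0855), which was called with all 3 controls (1.48, adjusted p = 0.0228), and IGFBP6 one of -1.81 ± 0.63 (adjusted p = 0.127), which was called with the lamb as a block (-1.88, adjusted p = 0.0406). In cold these 2 genes were at 1.05 ± 0.40 (adjusted p = 0.304) and -1.68 ± 0.63 (adjusted p = 0.29). IGFBP4 was at 1.68 ± 0.48 in cold (adjusted p = 0.149) and 1.52 ± 0.48 in AT lambs (adjusted p = 0.0949), and IGFBP3 at 1.39 ± 0.80 and 1.91 ± 0.80 (adjusted p = 0.509 and 0.207). With Controls 1 and 2 the IGFBP4 values were 0.02 and -0.11, and with all 3 controls 0.85 and 0.70. For IGF2, IGFBP2, IGFBP5 and DLK1 the tissue differences in cold were -0.06, -0.35, -0.53 and 0.16, and in AT lambs -2.37, -1.64, -0.21 and -0.48, with SEs between 0.49 and 1.27. The IGF2 value in AT lambs was -0.34 without AT 3 and -0.99 with the lamb as a block. Between cold and AT lambs the tissue differences of the 10 genes ran from -0.52 for IGFBP3 to 2.31 for IGF2. The value of IGF2 was 0.28 without AT 3 and 0.88 with the lamb as a block. Of the 10 genes 0 were called, beside 0% of all genes, and 0 by the DESeq2 Wald test. At an unadjusted p under 0.05 there were 2 of 10, beside 7.87% of all genes tested.

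Of 25 further genes of the IGF pathway, 20 were tested in each tissue. In thyroid 9 of the 20 fell in cold and 0 rose, and 9 fell and 0 rose in AT lambs. Over all genes tested, 16.9% fell in cold and 18.7% in AT lambs, and the median over the 20 genes was -0.55 and -0.47. In cold the called genes were IRS1, PAPPA, STC1, IRS2, AKT2, SHC1, AKT1, INSR and GRB2. In AT lambs they were IRS1, IRS2, STC1, PAPPA, STAT5A, SHC1, AKT2, GRB2 and AKT1. Under TMM scaling the counts were 3 and 2 of 20, where 8.87% and 8.73% of all genes were called in either direction. In BAT 0 of the 20 were called in either housed group, beside 1.48% of all genes tested in cold and 9.3% in AT lambs. IRS1 was there at 1.07 ± 0.32 in cold (adjusted p = 0.0947) and 0.95 ± 0.32 in AT lambs (adjusted p = 0.0753). Its BAT level was 46.0 and 49.5 normalized counts in the 2 controls and 59.0 to 139 in housed lambs, while Control 2 was at 495, above all of them.

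STC1, stanniocalcin, which inhibits the protease that frees IGFs from IGFBP4, was at 913 and 1406 normalized counts in the 2 thyroid controls, 3881 in Control 2 and 309 to 494 in the housed lambs. It fell by 1.53 in cold (SE 0.21, adjusted p = 0.00111) and by 1.53 in AT lambs (SE 0.21, adjusted p = 0.00101). PAPPA, that protease, was at 96.6 and 99.9 in the controls, 229 in Control 2, 18.7 to 47.1 in cold and 24.3 to 51.6 in AT lambs. It fell by 1.79 (SE 0.37, adjusted p = 0.00674) and by 1.41 (SE 0.37, adjusted p = 0.0174), and under TMM scaling the call in AT lambs was lost (-1.10, adjusted p = 0.0649). DESeq2 size factors also ended it (-1.10, adjusted p = 0.0633).

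IRS2, a docking protein of the insulin and IGF1 receptors, was at 2408 and 2498 in the thyroid controls, 2676 in Control 2, 738 to 1879 in cold and 687 to 935 in AT lambs. It fell by 1.21 on the log2 scale (SE 0.26, adjusted p = 0.00815) and by 1.59 (SE 0.26, adjusted p = 0.00181). STC1 was called in both housed groups under every alternative that was run, and its fall was larger with all 3 controls (-2.37 and -2.36). IRS2 was called under every alternative in AT lambs, and in cold under all but the fibroblast covariate (-0.94, adjusted p = 0.101). IRS1, its relative, was at 612 and 2615 in the controls, 735 in Control 2, 362 to 632 in cold and 164 to 726 in AT lambs, so the lower control overlapped both. It fell by 1.76 (SE 0.46, adjusted p = 0.02) and by 1.84 (SE 0.46, adjusted p = 0.0144), and with Controls 1 and 2 the values were -0.50 (adjusted p = 0.405) and -0.58 (adjusted p = 0.348). In the fit of both tissues, IRS1 was the 1 gene of this list whose change differed between BAT and thyroid, by 2.87 ± 0.62 in cold (adjusted p = 0.0476) and 2.84 ± 0.62 in AT lambs (adjusted p = 0.019). Over all genes tested in that fit, 0.188% and 1.66% were called. The IRS1 calls rest on Controls 1 and 3, and this difference is not given with other controls. In BAT, IRS1 was at 46.0 and 49.5 normalized counts in those controls and at 495 in Control 2. The housed lambs, at 59.0 to 139, lay above the former and below the latter. The thyroid follicular genes TG, the thyroid hormone precursor, and SLC5A5, the iodide transporter, moved with this list. TG fell by 0.90 in cold (adjusted p = 0.0176) and by 1.17 in AT lambs (adjusted p = 0.00441), and SLC5A5 by 2.55 (adjusted p = 0.043) and by 2.46 (adjusted p = 0.0468). TSHR, PAX8, NKX2-1 and FOXE1, further follicular markers, did not pass in either group, at log2 fold changes between -0.41 and 0.13. Whether that has a part in the list's counts was not tested.

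Of 17 imprinted growth genes besides IGF2 and DLK1, 12 were tested in each tissue. PEG3, an imprinted zinc finger gene, was at 543 and 566 normalized counts in the 2 BAT controls, 370 in Control 2, 1278 to 2790 in AT and 1077 to 1545 in cold lambs. It rose by 1.60 ± 0.31 in AT lambs (adjusted p = 0.00748) under every alternative run, and its log2 fold change in cold was 1.14 ± 0.30 (adjusted p = 0.0636). Its change differed between BAT and thyroid in AT lambs, by 2.09 ± 0.52 (adjusted p = 0.0362). It was the 1 gene of the 12 called in BAT of AT lambs, beside 9.3% of all genes tested. In cold 0 of the 12 were called in BAT, beside 1.48%. Of the 12 in thyroid, 1 fell and 0 rose in cold, beside 19.3% of all genes called in either direction. In AT lambs 1 fell and 1 rose in thyroid, beside 21%. In thyroid RTL1, a retrotransposon-derived gene of the DLK1 locus, fell by 1.50 in cold (SE 0.47, adjusted p = 0.0365) and by 1.41 in AT lambs (SE 0.47, adjusted p = 0.0443). Its 2 controls were at 33.7 and 147 and overlapped the housed lambs, at 22.0 to 54.0, while Control 2 was at 237, and under TMM scaling neither call held (adjusted p = 0.114 and 0.157). CDKN1C, a cell cycle inhibitor, rose by 1.12 ± 0.36 in thyroid of AT lambs (adjusted p = 0.0373), at 329 and 552 in the 2 controls, 833 in Control 2 and 514 to 1666 in AT lambs, and with all 3 controls it was 0.75 (adjusted p = 0.122).

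The genes most like 3 of the 10 in their pattern over 14 libraries were taken by the lowest root mean square difference of centred log2(normalized count + 1). For thyroid IGF1, whose SD was 0.65 on that scale, these were PTGR1 (0.21), the fibroblast marker DCN (0.28) and MFAP4 (0.31). In BAT they were MMP23B (0.38), CCDC80 (0.39) and HNMT (0.40), against an SD of 0.73. For IGF2 they were C24H16orf71 (0.24), PIF1 (0.24) and CEP170B (0.27) in BAT, and ADAMTSL5 (0.36), HSPB6 (0.37) and CCDC69 (0.38) in thyroid, where the SD of 1.20 came largely from AT 3. For DLK1 they were CNTFR (0.42), ZNF584 (0.44) and TRIM16 (0.45) in BAT and WNT11 (0.52), PGM5 (0.53) and TUBA1A (0.62) in thyroid.

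Across the 12 housed lambs, 14 relations were computed, and none had an adjusted p under 0.05. The level of a gene in BAT against its level in thyroid gave Pearson's r between -0.30 and 0.55 for the 10 genes. For IGFBP6 r was 0.55 (permutation p = 0.0613, adjusted 0.322) and Spearman's rho 0.67 (p = 0.0208, adjusted 0.185), and r was 0.35 without the 2 lambs farthest from the median in BAT. The lowest p was for IGF2 and DLK1 within thyroid, with r = 0.76 (permutation p = 0.00573, adjusted 0.0802) and rho = 0.64 (p = 0.0296, adjusted 0.185). Within groups r was 0.30 in cold and 0.76 in AT lambs, and it was 0.61 without the 2 lambs farthest from the median. Lamb AT 3 held the highest value of both genes. In BAT the same pair gave r = 0.47 (permutation p = 0.121, adjusted 0.339). IGF1 and IGFBP3 gave r = 0.54 in BAT (permutation p = 0.069, adjusted 0.322) and 0.39 in thyroid (permutation p = 0.208, adjusted 0.484).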

How the data were processed

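RNA from BAT and thyroid was sequenced on the BGISEQ-500. The authors trimmed reads with Trimmomatic 0.39, mapped them with STAR 2.7.7a to Oar_rambouillet_v1.0 and counted them per gene with featureCounts (Subread 2.0.0), multimapping reads included. The deposited table holds these raw counts. Chromosome numbers were assigned from same-named genes in the RefSeq gene table of ARS-UI_Ramb_v3.0, from which no coordinates were taken.

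The filter kept a gene if 10 or more libraries had 10 or more reads of it. Tests used edgeR 4.0.16 (quasi-likelihood test, robust) in R 4.3.3, with all 3 groups of a tissue in 1 fit and size factors from ACTB, RPL19 and HUWE1. P-values were adjusted by Benjamini-Hochberg over all genes tested, and a gene was called at an adjusted p under 0.05. The SE is the log2 fold change over the square root of F. The 95% intervals are normal intervals from that SE. They are narrower than the F test implies, so an interval can leave out 0 where the unadjusted p is over 0.05. The study removed 1 control as an outlier, and it was identified as Control 2 by matching normalized counts of its supplementary table to the counts. Replicate numbers follow the deposition order. With 2 controls in the fits, and 1 lamb per library, p-values measure the spread between these lambs.

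BAT and thyroid of 1 lamb share its number in the labels. Over 14403 genes the deviations of its 2 libraries from their group means correlated by -0.003 to 0.37 (median 0.22), and were over 0.1 in 13 of 14 lambs, so the lamb was used as a block in an alternative. No 2 libraries of a group agreed within sampling noise. The fit was tested on simulated data with known changes. Alternatives were TMM and DESeq2 1.42.0 scaling, the DESeq2 Wald test, other controls, each lamb left out, other filters, fits of 2 groups, RNA integrity as covariate and a fold minimum. All 3 controls with TMM scaling, leaving out thyroid AT 3 and Control 1, and covariates from muscle or fibroblast genes were chosen after seeing the data. In both tissues the summed fibroblast genes of Controls 1 and 3 lay below those of every housed lamb. Fits with that covariate therefore cannot tell fibroblast genes and housing apart.

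The 10 genes and the gene lists were chosen with earlier results of these data known. All 10 are accounted for in every comparison, some by value and some by range. From the 2 further lists, every gene called in a comparison with controls is named, with values for the 3 largest changes per list and tissue. H19 and MEG3 were planned for 4 further relations and were not analysed here. One marker result is not reported here.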

Additional observations from a re-analysis of the deposited data

Results flagged for a closer look

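Among 40 sets of 6 lambs (10 genes, 2 tissues, cold and AT), 3 had 1 lamb far from the other 5 by Dixon's gap test at the 95% level, where about 1 in 20 is flagged by chance. IGF2 in thyroid was at 10945 normalized counts in AT 3 and between 427 and 718 in the others, and that library also had summed skeletal muscle genes of 3131100, whose part in the IGF2 value was not tested. IGF1R in BAT was at 1362 in AT 4 against 599 to 882 in the others. IGFBP6 in BAT was at 2452 in AT 6 against 635 to 1281 in the others, and without AT 6 its log2 fold change in AT lambs was -1.35 (edgeR adjusted p = 0.0152, with 0.000905 to 0.914 over its 25 alternatives).

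The change in IGF2R against controls differed between BAT and thyroid by 2.03 in cold and 2.20 in AT lambs (log2, BAT minus thyroid, edgeR adjusted p = 0.00379 and 0.0006). Thyroid Control 2, left out of those fits, held 4064 normalized counts against 14674 and 21003 in the other controls. It also held the highest summed parathyroid genes, 9217 against at most 1253 in the other thyroid libraries. The part of these in the result was not tested.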

How the results depend on the processing

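Of 2460 values of the 10 genes under alternatives, 2374 kept their direction where called and their side of the threshold, 40 passed it, 46 no longer did, and none that was called reversed. The number of the 10 genes called moved as follows.

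In BAT cold against control, main count 0, it was 1 with all 3 controls and with fibroblast genes as covariate, 2 with all 3 controls and TMM scaling, and 0 to 1 with 1 lamb left out. In BAT AT against control, main count 1, it was 2 under TMM, DESeq2 size factors and the fibroblast covariate, 0 without the filter, with filterByExpr, with the RNA integrity number and with only the 2 groups, and 0 to 1 with 1 lamb left out. In thyroid cold against control, main count 2, it was 3 under TMM and DESeq2 scaling, by the DESeq2 Wald test, with all 3 controls under either scaling, with muscle genes as covariate and without AT 3 and Control 1, and it was 1 to 4 with 1 lamb left out, the 4 without AT 3 (IGFBP3 and IGFBP6 joined). In thyroid AT against control, main count 2, it was 1 with all 3 controls, with only the 2 groups and with the fibroblast covariate, 3 with all 3 controls and TMM scaling and without AT 3 and Control 1, and 0 to 2 with 1 lamb left out. For BAT against thyroid, main count 8, it was 5 with a log2 fold change of at least 1 required and 6 to 8 with 1 lamb left out. For the tissue difference in cold, main count 1, it was 0 with all 3 controls and 0 to 1 with 1 lamb left out. For that in AT lambs, main count 1, it was 3 by the DESeq2 Wald test, 2 with all 3 controls and with the lamb as replicate block, and 0 to 2 with 1 lamb left out. The block changed no other count by more than 1.5 times.

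The cause of these moves was not tested. The 3 comparisons of cold with AT lambs stayed at 0 under every alternative, and so did the 14 relations under TMM scaling. Leaving out Control 1 or 3 put Control 2 in its place. Other alternatives changed some calls near the threshold. Exchanging 1 of the 2 controls changed such calls and also calls far below it. The IGF2R tissue difference in AT lambs went from an edgeR adjusted p of 0.0006 to 0.103 with Controls 1 and 2. The calls of IGF2R in thyroid were lost with Controls 1 and 2, but not with Controls 2 and 3 or with all 3 controls.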
